A study of Mus musculus with 4 samples.

Results

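The 8 transcription factor genes described here, known from the anterior or proximal limb bud or its flank, were measured in mouse forelimb buds with and without Smarcc1: Alx1, Alx4, Pax1, Pax9, Irx2, Irx3, Irx5 and Hand1. The genes were taken by name, by matching their Ensembl identifiers to mm10 gene symbols, and all 8 of 8 were found among 35689 genes of the expression table. The table held 4 libraries, each from the right and left forelimb buds of 1 embryo at E11.5. The 2 knockout embryos were PrxCre/+;Smarcc1c/c, that is, homozygous for a conditional allele of Smarcc1 and carrying PrxCre, a Cre transgene driven in limb bud mesenchyme. The 2 control embryos were Prx+/+;Smarcc1c/c and so carried the same conditional alleles without Cre. Each genotype had 1 embryo with 40 somites and 1 with 39. Ectoderm, blood and vessels lie outside the PrxCre domain and are part of the sample, and in such whole buds fewer cells of a type and less RNA per cell cannot be told apart.

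Smarcc1 encodes BAF155, part of the core of the chromatin remodelling complex BAF, also called SWI/SNF. The limb bud is patterned from anterior (thumb side) to posterior (little finger side) by Sonic hedgehog from the posterior margin, opposed anteriorly by the repressor form of GLI3. The paired-type homeobox gene Alx4 marks the anterior mesenchyme, and loss of Alx4 in mice gives extra anterior digits with an ectopic anterior source of Shh. Pax9 is a paired-box gene of anterior mesenchyme whose loss also gives extra anterior digits, and its close relative Pax1 is a gene of the sclerotome and the shoulder girdle region. Irx3 and Irx5, of the Iroquois homeobox family, are needed for anterior and proximal skeletal elements of the hindlimb. Hand1 is a basic helix-loop-helix gene of heart and lateral mesoderm and a relative of the posterior limb gene Hand2. The title of the series names GLI repression as the question that the knockout addressed.

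Values are TPM, an abundance per unit of transcript length and of library total, so that levels can be compared between genes. The libraries each held 12555 to 12689 genes at 1 TPM or more, and how many reads lie behind a value is unknown. The targeted gene Smarcc1 measured 46.2 TPM in the knockout with 40 somites and 38.4 TPM in the one with 39, against 112.0 and 119.6 TPM in the controls. Y-linked Ddx3y was at 28.3 TPM in the knockout and 30.2 TPM in the control with 39 somites, and at 0.0498 and 0.0130 TPM in those with 40, so that sex coincided with stage and was balanced between the genotypes. All 12 genes of a list of limb mesenchyme markers, Prrx1, Tbx5 and Twist1 among them, passed the filter on low values described below. Each pair of values below gives the embryo with 40 somites first.

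In control forelimbs Alx4 was the highest of the 8 genes, and in the knockouts it ranked below Irx3 and Irx2. By mean TPM (± SD, n = 2) the controls had Alx4 at 12.3 ± 2.5, Irx2 at 6.39 ± 1.37, Irx3 at 4.33 ± 0.76, Irx5 at 2.53 ± 0.23, Alx1 at 1.37 ± 0.34, Pax9 at 1.15 ± 0.10, Hand1 at 0.745 ± 0.335 and Pax1 at 0.552 ± 0.495. Neighbours in this order did not overlap, except for Alx1 with Pax9 and Hand1 with Pax1. In the knockouts the order was Irx3 at 7.02 ± 3.07, Irx2 at 6.71 ± 4.22, Alx4 at 4.17 ± 1.67, Irx5 at 3.25 ± 1.11, Alx1 at 3.02 ± 0.82 and Pax9 at 0.768 ± 0.119, followed by Pax1 and Hand1, and each of the first 5 overlapped with the next within those 5, while Alx1 and Pax9 did not overlap. All lay in the lower part of the tested range: 29.2% of the tested genes had a lower mean level than Alx4, 10.8% than Alx1 and 1.26% than Pax9.

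**Figure D1:**
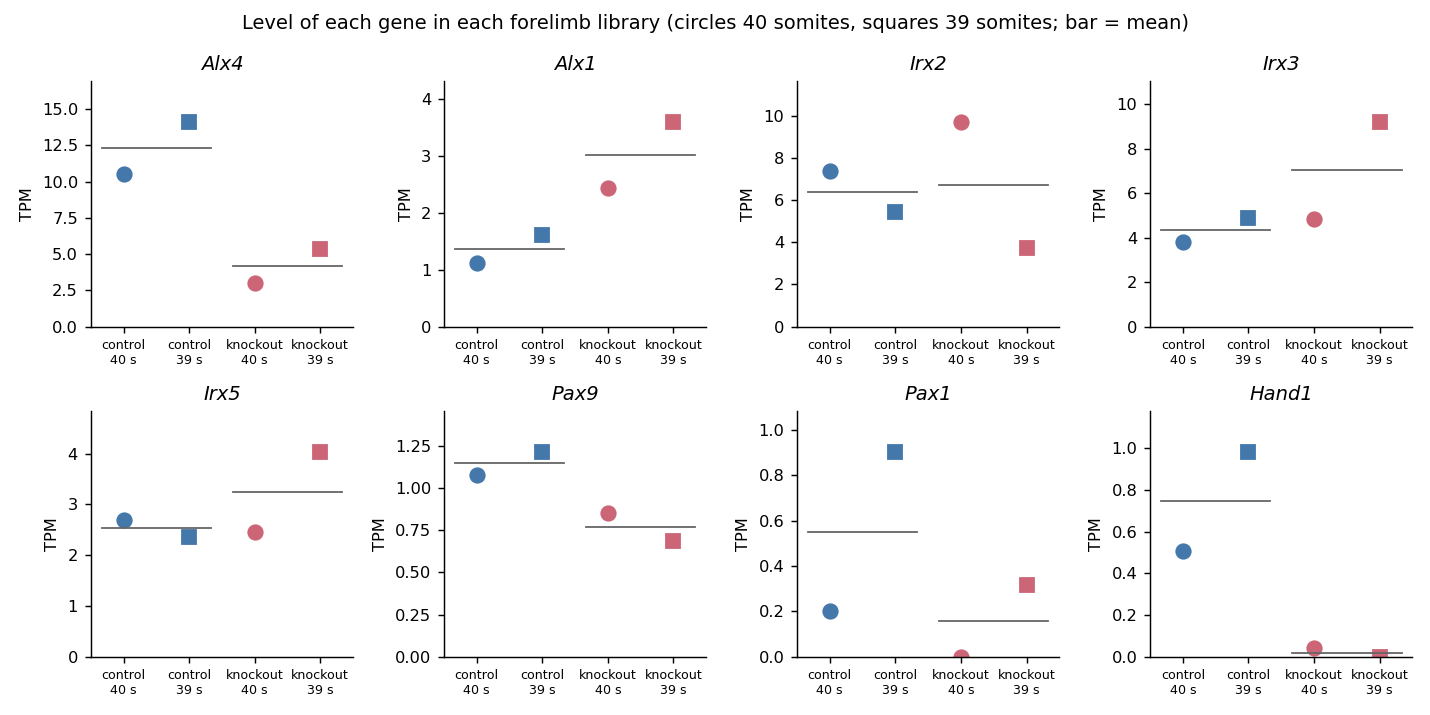
TPM of each of the 8 genes (vertical axes, linear from 0) in the 2 control (blue) and 2 knockout (red) forelimb libraries, with circles for 40 somites, squares for 39 and bars for the mean of each genotype. The Alx4 points of the knockouts, at 2.99 and 5.36 TPM, lie below both controls, and the Alx1 points, at 2.44 and 3.60 TPM, lie above both.

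The genotypes were compared with limma on log2(TPM + 1) over the 12809 genes that reached 1 TPM in 2 or more libraries, with Benjamini-Hochberg (BH) adjustment at 0.05 over all of them. Of the 8 genes, 6 entered this test, and Pax1 and Hand1 were too low. None of the 6 passed, that is, 0 rose and 0 fell, where 1.30% of all tested genes did. By the unadjusted p at 0.05 there were 2, Alx1 and Alx4, and 13.7% of all tested genes lay under this value. The groups did not overlap for Alx1 and Alx4, nor for Pax9, whose separation the filter on low values had fixed, and 43.9% of all tested genes did not overlap. Nothing is read from this count. The median log2 fold change of the 6 was 0.10, and that of all tested genes was 0.01.

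Alx4 was lower and Alx1 higher in both knockout embryos than in both controls, and neither passed. Alx4 (ENSMUSG00000040310, chromosome 2 of mm10, 93642384 to 93681339, plus strand) stood at 2.99 and 5.36 TPM in knockout embryos and 10.5 and 14.1 TPM in control embryos. The groups were thus separate, with a knockout mean at 33.8% of the control mean. Its log2 fold change was -1.39 ± 0.26 (SE, n = 2 embryos each), with a 95% interval from -2.02 to -0.77 and a limma BH-adjusted p of 0.0797, so that it did not pass. Only 0.890% of tested genes had a fold change of that size or larger in either direction.

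At equal somite stage Alx4 differed by -1.53 on the log2(TPM + 1) scale at 40 somites and by -1.25 at 39. The embryo with 39 somites was the higher one in both genotypes, by 0.67 in the knockouts and 0.39 in the controls. With somite stage in the model as a block, the SE was 0.12 and Alx4 was lower with a limma BH-adjusted p of 0.0158, in a fit that called 4.16% of all tested genes. It was the only one of the 6 that this fit called. Stage and sex coincide here, so the block removes both. With 4 libraries it also leaves fewer residual degrees of freedom per gene. The call with the block is therefore not read as firmer than the limma BH-adjusted p of 0.0797 without it.

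Alx1 (ENSMUSG00000036602, chromosome 10, 102998707 to 103030215, minus strand), a paralog of Alx4 with known roles in the craniofacial neural crest, stood at 2.44 and 3.60 TPM in knockout embryos and 1.12 and 1.61 TPM in control embryos. Both knockouts were above both controls. The ratio of knockout to control TPM was 2.17 at 40 somites and 2.24 at 39. The log2 fold change was 0.76 ± 0.21 (SE, n = 2 embryos each), with a 95% interval from 0.24 to 1.27, and did not pass (limma, BH-adjusted p = 0.197, and 0.0607 with stage as a block). The fold change understates the difference of so low a gene, because 1 TPM is added to every value. Of 8 neural crest and Schwann cell markers 5 were below 1 TPM in all 4 libraries, Sox10 and Foxd3 among them, and the sum of the 8 was 39.2 and 21.8 TPM in knockout embryos and 41.3 and 41.6 TPM in control embryos. Most of this sum was Tfap2b, which encodes a transcription factor of the AP-2 family, at 28.3 and 13.8 TPM in knockout embryos and 29.1 and 31.5 TPM in control embryos. The part of these cells in the Alx1 values was not tested.

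**Figure D2:**
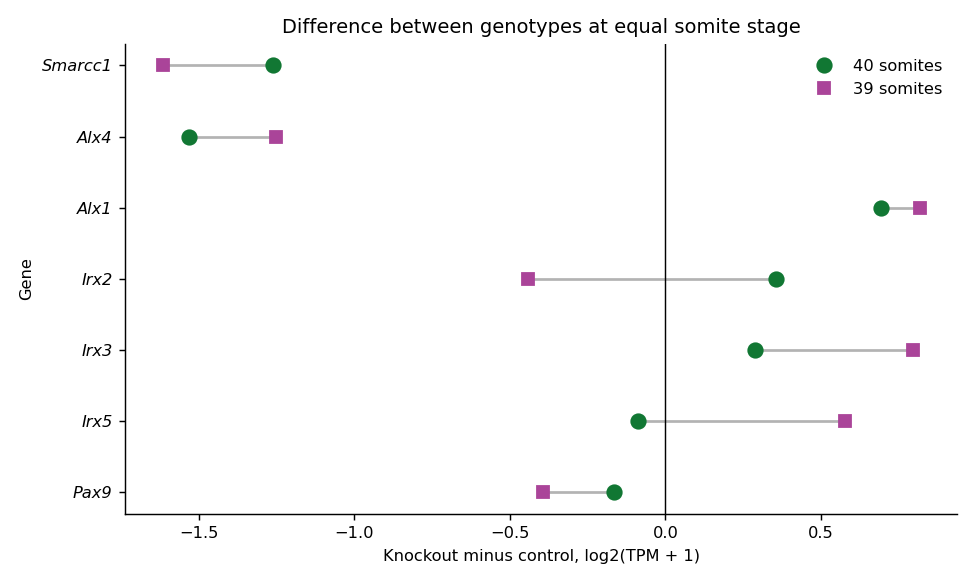
Difference between knockout and control at equal somite stage on the log2(TPM + 1) scale (horizontal axis) for Smarcc1 and the 6 tested genes, with circles for the pair at 40 somites and squares for the pair at 39, each 1 library against 1. Alx4 lies at -1.53 and -1.25 and Alx1 at 0.69 and 0.82, whereas the points of Irx2 and of Irx5 fall on both sides of 0.

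Within each library the TPM of Alx4 was 9.37 and 8.78 times that of Alx1 in the controls and 1.23 and 1.49 times in the knockouts. The ratio was bound to be separate between the genotypes, because Alx4 was lower and Alx1 higher in both knockouts than in both controls. Nothing further is read from it.

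Transcripts of Alx1 and Alx4 can be told apart by sequence: of the 5831 distinct stretches of 31 bases in the annotated Alx1 transcripts and 7046 in those of Alx4, 0 were in common. The largest overlap of Alx1 with another gene was 213 such stretches (3.65% of its own) in the gene model Gm17028. Alx4 shared 0.92% of its stretches with any other gene.

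The Pax genes were low, and each knockout value was below the control value of the same stage. Pax9 (ENSMUSG00000001497, chromosome 12, 56691767 to 56712822, plus strand) stood at 0.853 and 0.684 TPM in knockout embryos and 1.08 and 1.21 TPM in control embryos. Both knockouts were below both controls, and Pax9 entered the test only through its control values, so that a difference was built into its inclusion. Its log2 fold change was -0.28 ± 0.17 (SE, n = 2 embryos each; limma, BH-adjusted p = 0.563). Pax1 (ENSMUSG00000037034, chromosome 2, 147361925 to 147393295, plus strand) was listed at 0 in the knockout with 40 somites and stood at 0.318 TPM in the one with 39, while the controls had 0.202 and 0.903 TPM. The Pax1 groups overlapped, and no fold is given for it.

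Sclerotome and somite markers were read beside the Pax genes, which are also genes of the sclerotome. Of 9 such markers 5 were below 1 TPM in all 4 libraries, among them Nkx3-2, a sclerotome gene downstream of Pax1 and Pax9, at 0.0513 TPM and listed at 0 in the knockouts and at 0.125 and 0.0791 TPM in the controls. The summed TPM of the 9 was 123.1 and 141.0 in the knockouts and 84.5 and 74.0 in the controls, the opposite order to that of the Pax genes. Most of this sum was Meox2, a homeobox gene also active in limb muscle precursors, at 113.2 and 126.2 TPM against 74.5 and 64.0 TPM. Meox2 did not pass over all genes (limma, BH-adjusted p = 0.0519) and was higher with stage as a block (0.0352). Foxc2, a forkhead gene of paraxial mesoderm, stood at 2.39 and 2.16 against 0.714 and 1.20 TPM (adjusted p = 0.162). The part of these cells in the Pax values was not tested.

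None of the 3 Iroquois genes was separated between the genotypes. Irx3 (ENSMUSG00000031734, chromosome 8, 91798525 to 91802067, minus strand) stood at 4.85 and 9.19 TPM in knockout embryos and 3.79 and 4.87 TPM in control embryos. The knockout with 40 somites lay just below the control with 39, so the groups overlapped, while at equal stage the knockout was 1.28 and 1.89 times the control. The log2 fold change was 0.54 ± 0.28 (SE, n = 2 embryos each), with a 95% interval from -0.13 to 1.22 (limma, BH-adjusted p = 0.476). Without the knockout with 40 somites it was 0.94 and passed (limma, BH-adjusted p = 0.00803, in a fit that called 5.04% of all tested genes), and without the knockout with 39 somites it was 0.14 and did not pass, so that 1 library sets the size of the difference.

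Irx5 (ENSMUSG00000031737, chromosome 8, 92357625 to 92376286, plus strand), the partner of Irx3 in the same gene cluster, stood at 2.47 and 4.03 TPM in knockout embryos and 2.69 and 2.37 TPM in control embryos. The knockout with 39 somites was above the other libraries, which lay close together. Its log2 fold change was 0.24 ± 0.22 (SE, n = 2 embryos each), with a 95% interval from -0.28 to 0.77 (limma, BH-adjusted p = 0.707). The ratio of Irx3 to Irx5 was 1.97 and 2.28 in the knockouts and 1.41 and 2.05 in the controls.

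Irx2 (ENSMUSG00000001504, chromosome 13, 72628820 to 72634198, plus strand), of the other Iroquois cluster, stood at 9.70 and 3.73 TPM in knockout embryos and 7.36 and 5.42 TPM in control embryos. The highest and the lowest library were both knockouts. The log2 fold change was -0.04 ± 0.38 (SE, n = 2 embryos each; limma, BH-adjusted p = 0.979), and the 95% interval from -0.96 to 0.87 leaves room for a nearly 2-fold difference either way. The sums of Irx2, Irx3 and Irx5 were 17.0 and 17.0 TPM in knockout embryos and 13.8 and 12.7 TPM in control embryos.

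By stage, which coincides with sex here, the genes of 1 cluster had the same order and those of the other did not. This pattern was chosen after the values were seen. The cluster on chromosome 13 holds Irx1, Irx2 and Irx4, and all 3 were higher at 40 than at 39 somites in both genotypes. So were 15.6% of all tested genes, among which Irx1 was too low to be. Irx4 stood at 3.38 and 2.18 TPM in knockout embryos and 2.86 and 1.93 TPM in control embryos. Irx1 stood at 0.940 and 0.522 TPM in knockout embryos and 0.827 and 0.263 TPM in control embryos. Of the cluster on chromosome 8, Irx3 was higher at 39 somites in both genotypes, Irx5 only in the knockouts, and Irx6, at 0.229 TPM or less, was higher at 40 somites in both.

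Markers of the surface ectoderm, which lies outside the PrxCre domain, were in sum higher at 40 than at 39 somites in both genotypes, like the chromosome 13 cluster. Sex also differed between these libraries. So did the mitochondrial share of TPM, at 10.08% and 7.58% in the knockouts and 9.91% and 8.05% in the controls, and which of these the order follows was not tested. The summed TPM of 12 ectoderm markers was 498.6 and 315.0 in the knockouts and 636.8 and 417.5 in the controls. Of the 12, 0 passed in either direction by limma over all genes, and by the unadjusted p at 0.05 there were 0 higher and 4 lower. Their median log2 fold change was -0.42, and all 12 were below 0. With stage as a block 3 of the 12 fell, Cldn6, Perp and Grhl3 (limma, BH-adjusted p = 0.0230, 0.0251 and 0.0496). The part of the ectoderm in the Irx2 values was not tested. Markers of the neural tube, where Irx3 and Irx5 are also active, were near 0: all 8 were below 1 TPM in all 4 libraries, and Olig2, Nkx2-2 and Dbx1 were listed at 0 throughout.

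Sharing of sequence is small for the Iroquois genes. Irx3 and Irx5 had 28 stretches of 31 bases in common, Irx2 and Irx5 had 35, and Irx3 and Irx6 had 75, the last being 2.72% of those of Irx3. Irx3 shared 6.08% of its stretches with any other gene, the largest share of the 8, and Hand1 shared 0.

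Hand1 (ENSMUSG00000037335, chromosome 11, 57828705 to 57832818, minus strand) was barely present. It stood at 0.0404 TPM and was listed at 0 in the knockouts, and at 0.508 and 0.982 TPM in the controls. Both knockouts were below both controls, but all values were under 1 TPM, Hand1 was not tested and no fold is given. The fit with no filter on low values, which also held Hand1, called 0 genes. Even the targeted Smarcc1 did not pass in it (limma, BH-adjusted p = 0.111), so that fit cannot decide on Hand1. Its relative Hand2, a posterior gene that acts upstream of Shh, stood at 81.5 and 99.2 TPM in knockout embryos and 102.0 and 101.7 TPM in control embryos (limma, BH-adjusted p = 0.627). Heart and lateral plate markers, read because Hand1 is active there, were near 0 as well: 9 of 10 were below 1 TPM in all 4 libraries, Nkx2-5 and Nppa were listed at 0, and the sum of the 10 lay between 0.762 and 1.47 TPM.

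Other genes that mark the anterior or anterior-proximal limb bud did not move one way. Of 9 in the list, 7 were tested, and 0 rose and 0 fell by limma over all genes, with 1 higher and 2 lower by the unadjusted p at 0.05 and a median log2 fold change of -0.08. Asb4, an anterior gene that encodes an ankyrin repeat protein, stood at 249.6 and 293.7 TPM in knockout embryos and 387.0 and 562.3 TPM in control embryos (adjusted p = 0.162, and 0.0299 with stage as a block). Epha3, which encodes an ephrin receptor, stood at 4.40 and 3.76 against 7.95 and 10.1 TPM (0.0646, and 0.0458 with the block). Pkdcc, which encodes a secreted kinase needed for limb growth, stood higher at 25.0 and 62.4 against 15.5 and 22.6 TPM, and did not pass (0.344, and 0.0599 with the block). Gli3, the source of the repressor, stood at 20.1 and 24.2 against 23.0 and 29.4 TPM, with overlapping groups (limma, BH-adjusted p = 0.629).

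Of the posterior and Hedgehog-responsive genes 3 passed, all lower. Of 17 tested, 0 rose and 3 fell by limma over all genes, Shh, Sall1 and Tbx3, with log2 fold changes of -1.41 ± 0.18, -1.16 ± 0.16 and -1.19 ± 0.18 (SE, n = 2 embryos each; BH-adjusted p = 0.0319, 0.0351 and 0.0465). Shh and Tbx3 lost their calls without the control with 40 somites (0.0942 and 0.138 by limma), and all 3 without the control with 39 somites (0.0699 for Shh, 0.0821 for Sall1 and 0.0848 for Tbx3). Shh and Tbx3 also lost theirs under median-ratio scaling (limma, BH-adjusted p = 0.0508 and 0.0738) and quantile scaling (0.0612 and 0.0840), and with no filter on low values none of the 3 passed. Tbx3 lost its call with no variance trend as well (limma, BH-adjusted p = 0.0510). With stage as a block 5 fell, the other two being Hoxd11 and Hoxd10 (limma, BH-adjusted p = 0.0225 and 0.0398). By the unadjusted p at 0.05, 5 were higher and 6 lower, and the median was -0.14. Hedgehog-responsive Gli1 and Hhip were among the 5 higher, and neither passed (limma, BH-adjusted p = 0.162 and 0.131). Gli1 stood at 41.9 and 38.8 against 29.5 and 29.7 TPM, and Hhip at 2.73 and 4.51 against 1.45 and 1.14 TPM. Ptch1 was nearly level, at 28.1 and 28.0 against 28.0 and 26.3 TPM. Osr1, a zinc finger gene of limb mesenchyme, stood at 17.4 and 20.7 against 10.9 and 8.18 TPM (adjusted p = 0.0797). The TPM of Alx4 was 0.651 and 0.840 times that of Shh in the knockouts and 0.601 and 0.965 times in the controls, so the ratio of the anterior to the posterior gene overlapped between the genotypes.

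Among relatives of the 8 genes, 4 of 12 were tested and 0 passed. Besides Hand2 and Irx4 these were Pax3, a gene of migrating myoblasts, at 3.42 and 5.69 TPM in knockout embryos and 3.44 and 3.13 TPM in control embryos, and Mkx, an Iroquois-like tendon gene, at 6.24 and 4.63 against 7.83 and 6.56 TPM. The other 8 were below 1 TPM in all 4 libraries. Against the general mesenchyme gene Prrx1, Alx4 was lower in proportion. Its TPM was 0.0230 and 0.0383 times that of Prrx1 in the knockouts and 0.0560 and 0.0703 times in the controls. Prrx1 itself stood at 129.9 and 139.8 against 188.2 and 201.1 TPM (limma, BH-adjusted p = 0.101, and 0.0293 with stage as a block). Of the 12 mesenchyme markers, 0 rose and 1 fell over all genes, Msx1, with a log2 fold change of -1.75 ± 0.16 (SE, n = 2 embryos each; limma, BH-adjusted p = 0.0117). Msx1 stood at 27.0 and 27.8 against 81.5 and 108.9 TPM, with a knockout mean at 28.8% of the control mean. It lost its call with no filter on low values (limma, BH-adjusted p = 0.119). With stage as a block 1 of the 12 rose, Lmx1b (limma, BH-adjusted p = 0.0177), and 2 fell, Msx1 and Prrx1. Among markers of the other cell types in the bud, 0 of 3 tested for neural crest and Schwann cells, 0 of 7 for myoblasts, 0 of 8 for endothelium and 0 of 11 for erythroid cells passed, with median log2 fold changes of -0.37, 0.34, 0.10 and 0.17, and by the unadjusted p at 0.05 there were 0, 1, 0 and 3. With stage as a block 1 of these genes passed, the haemoglobin gene Hba-a1, which was higher (limma, BH-adjusted p = 0.0487).

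**Figure D3:**
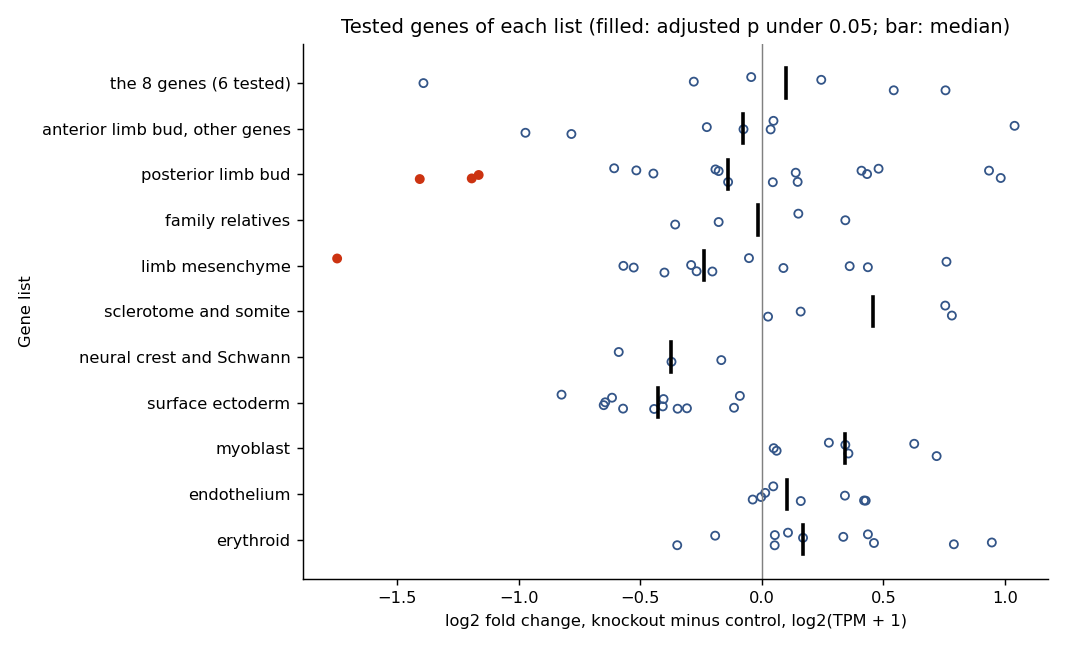
Log2 fold changes, knockout minus control on the log2(TPM + 1) scale (horizontal axis), of the tested genes of each list, with filled points for genes past the threshold, open points for the others and bars for medians; lists with no tested gene are left out. The 6 tested genes of the anterior set spread from -1.39 to 0.76 around a median of 0.10, and the filled points are Shh, Sall1 and Tbx3 of the posterior list and Msx1 of the mesenchyme list.

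Genes next to the 8 on the chromosomes were counted, and nothing is read from the counts. Over all tested genes 1.30% passed by limma and 13.7% had an unadjusted p under 0.05. Within 500 kb of a start site of the 8 there were 37 other protein-coding genes, of which 23 were tested and 0 passed by limma over all genes. One had an unadjusted p under 0.05, Lpcat2, an enzyme gene of phospholipid metabolism 497.7 kb from the start of Irx5, at 0.783 and 1.64 TPM in knockout embryos and 2.47 and 3.23 TPM in control embryos (adjusted p = 0.208). Alx4 had 9 such neighbours with 6 tested and a median log2 fold change of -0.07. The next by p were Ext2, a heparan sulfate synthesis gene 180.2 kb from Alx4, at 0.24 ± 0.13, and Mfap3, 314.2 kb from Hand1, at 0.22 ± 0.13. Fto, 488.5 kb from Irx3, stood at 28.7 and 29.0 TPM in knockout embryos and 29.0 and 31.6 TPM in control embryos. No neighbour of Alx1 or Irx2 was tested.

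The genes whose profile over the 4 libraries was most like that of a member were found by the root-mean-square difference of centred log2(TPM + 1) values among 11753 protein-coding genes. For Alx1 these were Lmx1b, the dorsal LIM homeobox gene, with a difference of 0.041, then Cd1d1 and Capn6 at 0.051 and 0.053. Lmx1b stood at 43.9 and 54.5 TPM in knockout embryos and 25.6 and 31.6 TPM in control embryos. For Alx4 the nearest were the agouti gene a, which encodes a pigmentation signal, at 0.056, Phactr3 at 0.084 and Gdf1 at 0.091. The agouti gene stood at 12.6 and 19.9 against 34.8 and 45.9 TPM, and Phactr3 at 0.577 and 1.13 against 3.27 and 4.60 TPM. Gdf1 was listed at 0 and stood at 0.435 TPM in the knockouts, against 1.61 and 2.17 TPM. It entered the test only through its control values, so that a fall was built into its inclusion. For Pax9, whose values hardly vary on this scale, 812 genes lay within 0.1, against 33 for Alx1 and 4 for Alx4. Likeness over 4 libraries is a description of these libraries.

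Alx4 was lower in the knockouts in each of 14 other settings, from -1.73 to -0.92 on the log2 scale, and the call varied. Both knockouts lay below both controls, so no pseudocount or left-out library could have reversed the direction. The block, the filters and the variance estimates left the value at -1.39. Alx4 did not pass in 10 of the 14 settings. These included the fit with no filter on low values (limma, BH-adjusted p = 0.270) and the fits with a control library left out. It passed with stage as a block, with a robust variance estimate (limma, BH-adjusted p = 0.0446, a fit that called 2.15% of all tested genes) and without either knockout library. In those last fits, which called 5.04% and 3.91% of all tested genes without the knockout with 40 and with 39 somites, the lone knockout is assumed to vary like the controls. It was -1.05 without the knockout with 40 somites and -1.73 without the one with 39. Alx1 was above 0 in each of 13 other settings, from 0.33 with a pseudocount of 5 to 1.08 with a pseudocount of 0.1. Its separate groups likewise fixed this direction for pseudocounts and left-out libraries. Alx1 passed only without the knockout with 40 somites, the same fit as for Irx3.

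**Figure D4:**
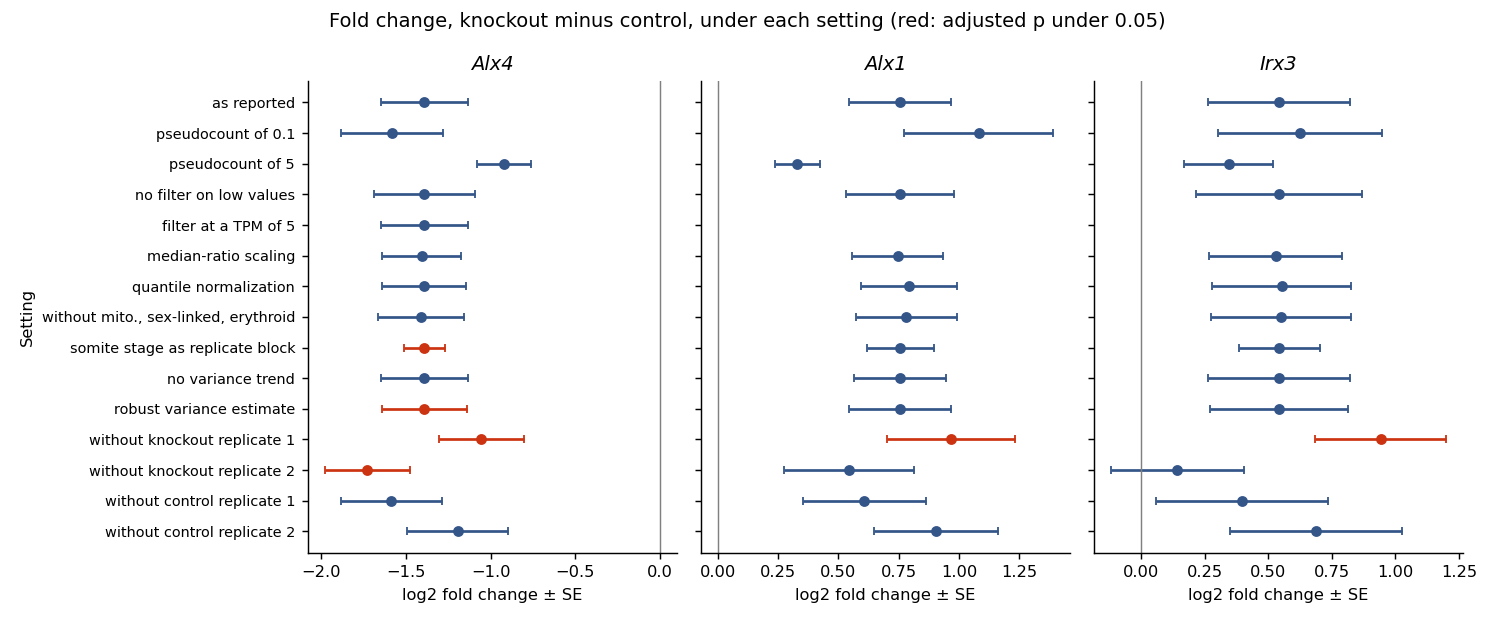
Log2 fold change ± SE, knockout minus control (horizontal axes), of Alx4, Alx1 and Irx3 under each processing setting (vertical axis), with red points for adjusted p under 0.05 and no point where a stricter filter removed the gene. Alx4 runs from -1.73 to -0.92 and Irx3 from 0.14 to 0.94.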

How the data were processed

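The deposited values are TPM, made by the authors for 35727 Ensembl genes in 4 columns that each sum to 1000000. Salmon 1.9.0 and mm10 are named, per the submitters' processing notes, without settings, and the transcript set is not given in the sources used here. One column name had a letter more than its sample title. Identifiers were matched to symbols (99.1%), values of 38 repeated symbols were summed, and coordinates come from GENCODE M21 (mm10). TPM keeps no depth, so count models and counting intervals were not used. The test was limma 3.58.1 (R 4.3.3; eBayes with a variance trend, no covariate, Benjamini-Hochberg adjustment) on log2(TPM + 1) for genes that reached 1 TPM in 2 or more libraries, and was tested on simulated data first. With 2 libraries per genotype, permuting single values can reach no small p, so none is given.

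Somite stage, from the labels, pairs 1 knockout with 1 control. Across 12809 genes the differences between stages in the 2 genotypes correlated (Pearson 0.250, Spearman 0.364, genes not being independent). The block was one alternative, beside pseudocounts of 0.1 and 5, no filter or one at 5 TPM, median-ratio and quantile scaling, removal of mitochondrial, sex-linked and erythroid genes, other variance estimates, and each library left out. Shared stretches of 31 bases were counted on either strand of the GENCODE transcripts. Named genes are the 8, Smarcc1, up to 4 per list with the smallest p, neighbours within 500 kb and the 3 most like profiles; others were named after their values were seen. One gene is not reported here and was therefore taken out of the lists of anterior genes and relatives after the analysis, for a reason unrelated to its values, and the profiles most like Pax9 are not reported here. The genes and lists were chosen with earlier results of these data known.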

Additional observations from a re-analysis of the deposited data

Results flagged for a closer look

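Irx2 and Irx5 were picked out because the knockout differed from the control in opposite directions at the 2 somite stages. For Irx2 the difference on the log2(TPM + 1) scale was 0.36 at 40 somites and -0.44 at 39, a change of -0.80. For Irx5 it was -0.09 at 40 somites and 0.58 at 39, a change of 0.67. Each stage has 1 library per genotype, so neither change was tested, and 30.8% of all tested genes had opposite signs at the 2 stages.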

How the results depend on the processing

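Counts of genes past the threshold moved from 167 to 0 with no filter on low values (2338 at an unadjusted p under 0.05), 533 with somite stage as a replicate block, 275 with a robust variance estimate and 316 at a threshold of 0.1, and from 50 to 646 with a library left out. Of the 8 genes, 0 passed as reported, 1 (Alx4) passed with the block and with the robust estimate, and 0 to 3 passed with a library left out, 3 (Alx1, Alx4 and Irx3) without the knockout with 40 somites. The block called 4.16% of all tested genes, the robust estimate 2.15% and the fit without the knockout with 40 somites 5.04%. In that last fit the lone knockout is assumed to vary like the controls, so nothing is read from its 3 calls. The block changed no other call among the 8. With a library left out the log2 fold change ran from -0.63 to 0.55 for Irx2 and from -0.024 to 0.51 for Irx5, changing sign in both. Smarcc1, whose groups did not overlap, was lower in each of 14 settings and lost its call with no filter (limma, BH-adjusted p = 0.111). Stage, sex and embryo cannot be told apart with 1 library per stage and genotype, and depth is unknown, so values under 1 TPM have unknown precision.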
